A study of Mus musculus with 9 samples.

Results

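The effect of high against physiological laminar shear was measured by RNA sequencing in bEnd.3, an endothelial line from mouse brain that was immortalised with the polyoma middle T antigen. All cells came from this 1 line, grew on glass coverslips and received flow in a parallel-plate chamber. The PSS group (3 libraries) was kept under laminar shear of 10 dyne/cm2, described as normal for brain vessels. The HSS group (3 libraries) was kept under laminar shear of 20 dyne/cm2, meant to model early aneurysm formation where a brain artery branches. A static control was not analysed here, and the labels used give no time under flow. These 6 of the 9 libraries of the series were chosen by their treatment label alone, and the model was fitted to them without the third, vortex flow group. Total counts per library ran from 17407217 to 20785031, and 15277 of 31232 listed genes had enough counts to be tested.

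Endothelial cells sense the drag of blood through junction proteins, ion channels, integrins and a surface coat of sugars. Steady laminar flow is known to raise the transcription factors Klf2 and Klf4 through the kinases MEK5 and ERK5, which favours a quiet, non-inflamed vessel wall, while flow far from a vessel's set point is known to activate NF-kappaB. Brain endothelium adds tight junctions sealed by claudin 5 and a set of transporters that together form the blood-brain barrier. The comparison asks what a step up in laminar shear does to these programs.

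The libraries of the 2 groups were well apart, and the spread within them was unequal. Pearson correlations of log2 CPM (CPM, counts scaled to library size) across genes, which are not independent replicates, were 0.993 to 0.994 within HSS, 0.976 to 0.992 within PSS and 0.928 to 0.940 between groups. PSS replicate 3 stood apart from PSS replicates 1 and 2: it had more RNA of short genes and of genes with low GC content, and 4.71% of its counts came from the mitochondrial genome against 3.29% to 3.81% in the other 5 libraries. Larger shifts of counts and calls without it are given below, and many lists also had smaller shifts that are not all given. The median SD of a gene's log2 CPM was 0.0798 in HSS and 0.234 in PSS, and 80.5% of tested genes varied more in PSS. The labels do not say whether replicates came from separate cultures, and RNA is described as mixed at extraction, so p-values measure the spread between these samples, which may be technical. An exact permutation test of 3 libraries against 3 cannot give a p below 0.1, and significance for single genes therefore rests on the variance model shared across genes.

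The labelled cell type was checked against its defining markers. PSS libraries held the endothelial genes Cdh5 (573, 604 and 473 to 129, 123 and 123 CPM, PSS replicates 1, 2 and 3 and then HSS), Kdr (461, 493 and 420.1 to 7.30, 7.96 and 7.49 CPM), Tie1 (421, 487 and 332 to 207, 211 and 213 CPM) and Vwf (786, 895 and 643 to 16.6, 13.5 and 15.3 CPM). Pecam1, a general endothelial adhesion molecule, was low in both groups, with 275, 254 and 300 counts in PSS and 23, 28 and 32 counts in HSS. In HSS, Cdh5 and Tie1 were still abundant, whereas Cldn5 (1162, 1202 and 1110 counts in PSS and 2, 0 and 0 counts in HSS) and Erg (1270, 1243 and 1479 counts in PSS and 15, 8 and 5 counts in HSS) were close to absent. Markers of other cell types differed in level. Their calls are given beside the shares over all tested genes, 20.4% higher and 20.4% lower. Fibroblast genes were present in both groups. The 19 pericyte and fibroblast markers with counts given summed to 653 to 848 CPM in PSS and 708 to 741 CPM in HSS. Of the 16 tested, 5 rose (31.2%), such as the receptor Pdgfrb by 0.77, and 6 fell (37.5%), such as the matrix gene Dpt by 3.50. Beyond 2-fold there were 1 rise and 3 falls. The pan-leukocyte gene Ptprc and the myeloid gene Itgam had 0 or 1 count in each library. Of the 5 leukocyte markers with enough counts to be tested, Csf1r, Mrc1 and Cd14 rose, and the macrophage gene Cd68 was at 4.94, 5.20 and 3.89 CPM in PSS and 5.85, 5.83 and 5.39 CPM in HSS and did not pass. The 19 epithelial markers with counts given summed to 15.9 to 19.8 CPM in PSS and 40.6 to 46.6 CPM in HSS. Of the 10 tested, 2 were higher (20%) and 2 lower (20%), close to the shares over all tested genes. The factor Elf3 rose by 3.49, from 2.66 to 30.0 CPM, and Krt18 fell by 0.96, from 4.94 to 2.52 CPM. Elf3 alone made up most of the summed epithelial level in HSS. The median log2 fold change of the 10 tested epithelial markers was -0.06. Leaving out 1 library moved the higher count from 2 to 1 without PSS replicate 1 or HSS replicate 1 or 2. The 18 smooth muscle genes with counts given summed to 1867 to 1969 CPM in PSS and 1734 to 1748 CPM in HSS. Of the 12 tested, 2 rose (16.7%) and 4 fell (33.3%). The smooth muscle actin Acta2 was low, with means of 1.28 CPM in PSS and 0.86 in HSS, and did not pass. Single libraries moved the higher count from 2 to 1 without PSS replicate 1 or 2 or HSS replicate 1, 2 or 3, 5 without PSS replicate 3. The 17 neural and glial markers with counts given summed to 177.6 to 243.8 CPM in PSS and 162.1 to 168.5 CPM in HSS. Of the 10 tested, 0 rose and 2 fell (20%). The part of these cell types in the results was not tested. The summed level of the 18 leukocyte markers with counts given, tested or not, was 13.9, 13.1 and 14.7 CPM in PSS and 45.5, 41.5 and 44.6 CPM in HSS. Y-chromosome genes such as Ddx3y (177, 169 and 199 CPM in PSS and 129, 116 and 118 CPM in HSS) were present in all 6 libraries. In bulk RNA, fewer cells of a kind and less RNA per cell cannot be told apart, which holds for every result here.

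Of the 15277 tested genes 6233 (40.8%) differed between HSS and PSS at an adjusted p under 0.05, 3110 (20.4%) higher and 3123 (20.4%) lower in HSS. Each adjusted p comes from edgeR's quasi-likelihood F test and is corrected over all tested genes by the Benjamini-Hochberg method. The median log2 fold change of HSS over PSS was -0.03 over all genes, with 5th and 95th percentiles of -1.46 and 1.30. With a test against a minimum change of 2-fold (edgeR's glmTreat), 1205 genes (7.89%) passed, 550 (3.6%) higher and 655 (4.29%) lower. Most calls were therefore of modest changes: 801 higher and 671 lower calls had an absolute log2 fold change under 0.5, and 143 higher and 206 lower calls had one over 3. For 56.9% of tested genes the libraries of the groups did not overlap. The count of calls moved with the libraries entered, and was 8955 without PSS replicate 3, 6982 without PSS replicate 2, 4854 without PSS replicate 1, and 4233, 4327 and 4180 without HSS replicate 1, 2 and 3. The count beyond 2-fold was steadier, at 976 to 1487. Calls were spread over expression levels, from 28.4% of the 20% of tested genes with the lowest counts to 45.4% of the 20% with the highest, while changes beyond 2-fold made up 11.1% and 3.76% of these genes.

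**Figure D1:**
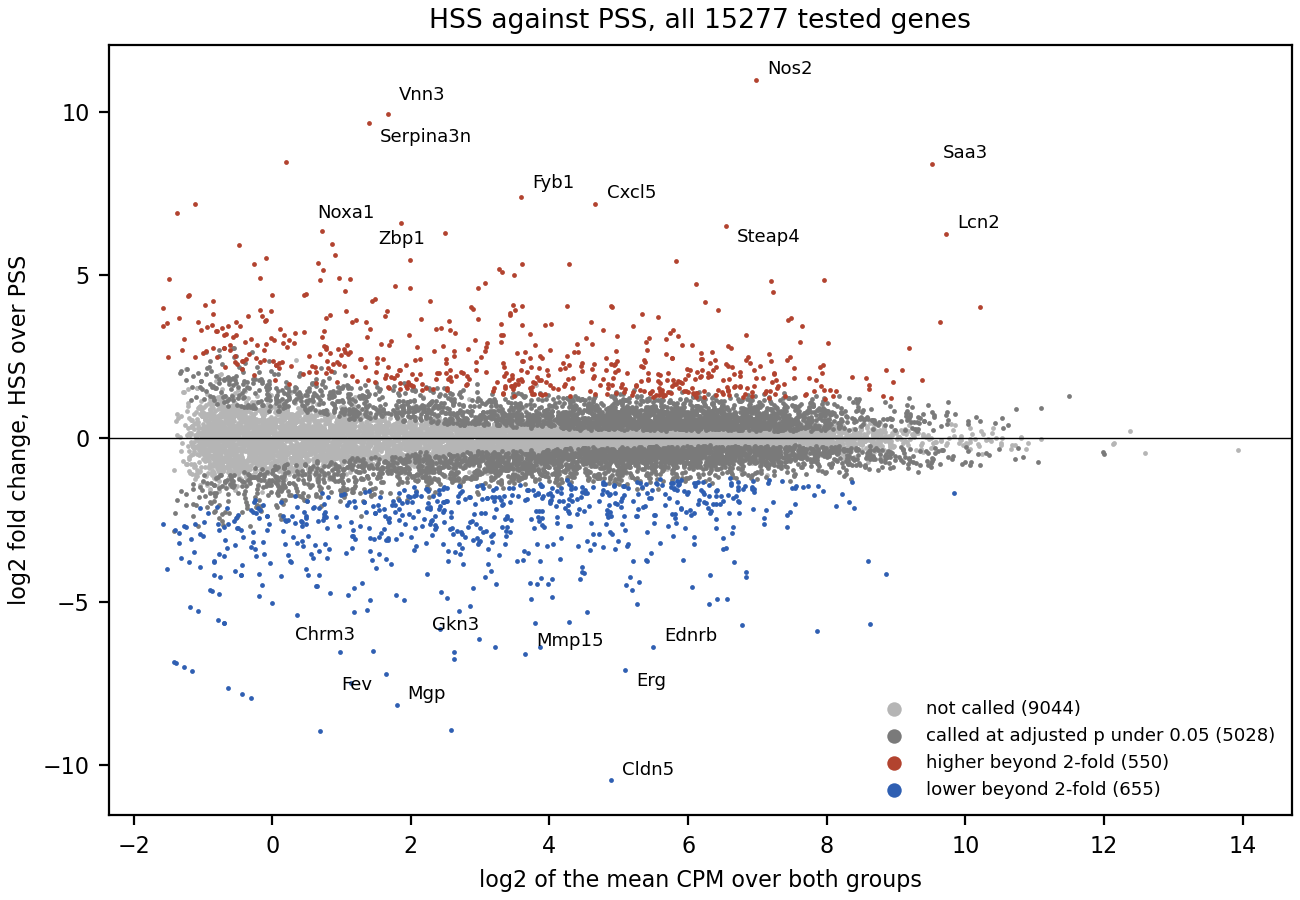
Log2 fold change of HSS over PSS (vertical axis) against the log2 mean CPM over both groups (horizontal axis) for each of the 15277 tested genes, coloured by call, with names at 18 of the 20 genes of the largest rises and falls that had at least 5 CPM in the higher group. Changes beyond 2-fold go both ways, 550 higher and 655 lower, and the named genes run from Cldn5 at the bottom to Nos2 at the top.

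Gene lists are described by how many of their tested members were called, beside the shares over all tested genes given above. The lists with the highest shares of higher calls were those of the interferon response (42 of 43), the acute phase (19 of 20) and chemokines (12 of 15). Those with the highest shares of lower calls among lists of at least 5 genes were cholesterol synthesis (22 of 22), endothelial identity (26 of 28) and endothelial transcription factors (18 of 21).

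**Figure D2:**
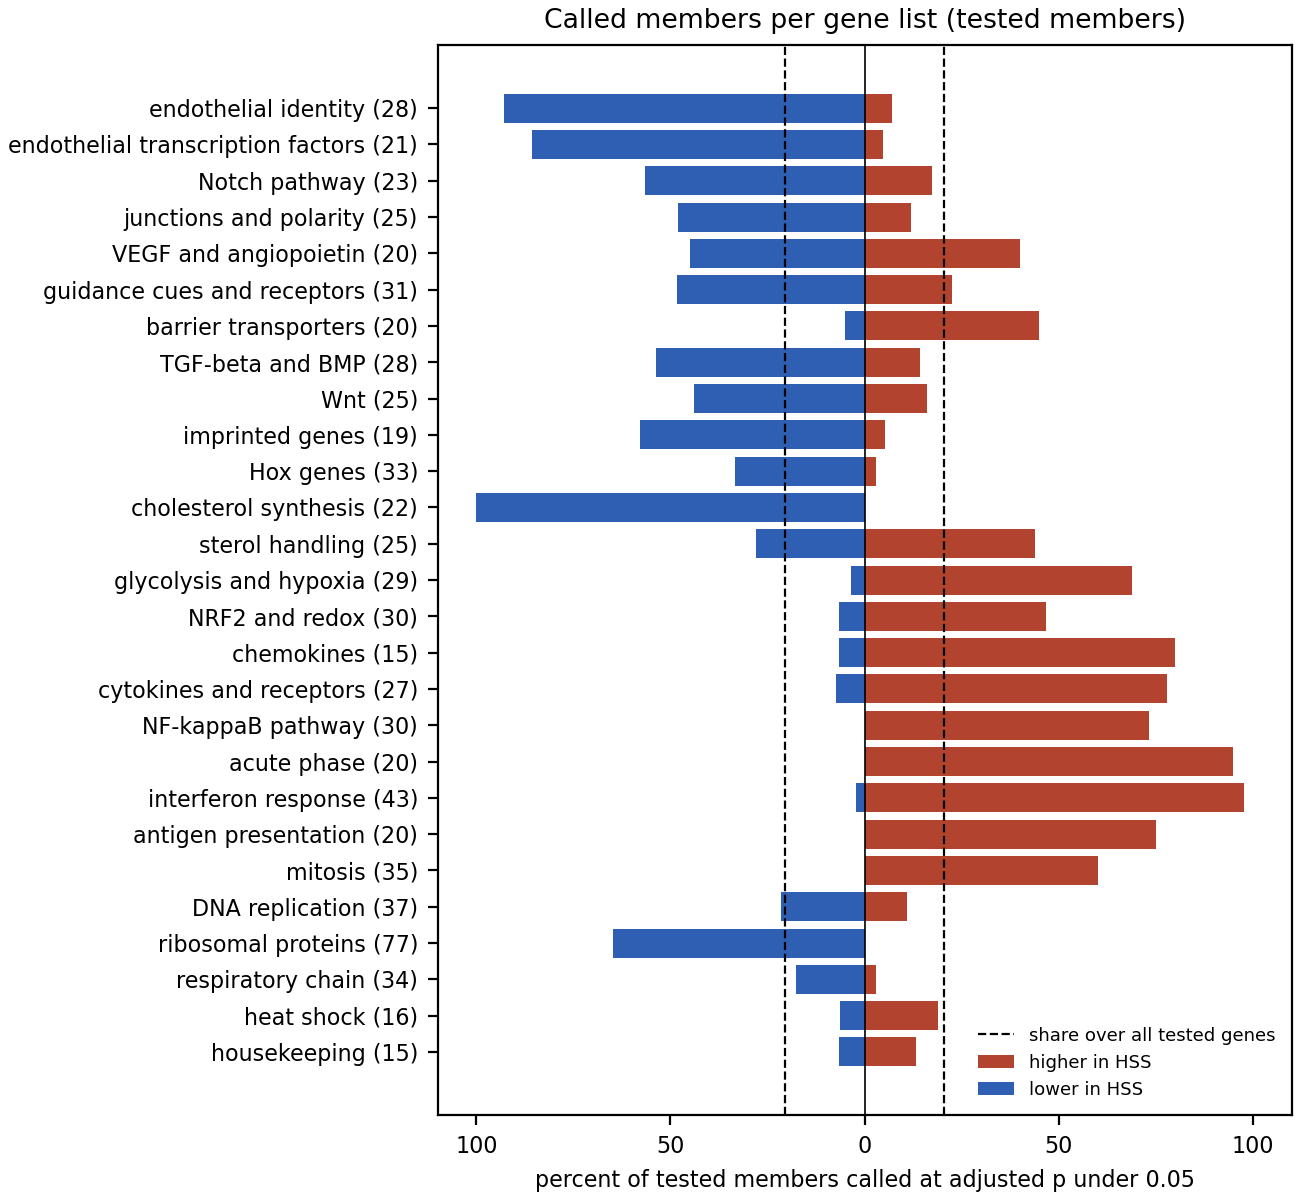
Percent of the tested members of 27 gene lists called higher (red, to the right) or lower (blue, to the left) in HSS at an adjusted p under 0.05, with the number of tested members after each name and dashed lines at the shares over all tested genes, 20.4% on either side. Bars of endothelial and cholesterol synthesis lists reach far to the left, and those of inflammatory, interferon and mitosis lists reach far to the right.

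Endothelial identity genes were lower in HSS in nearly the whole list. Of 28 tested members, 26 fell, 22 of them beyond 2-fold, and 2 rose, with a median log2 fold change of -3.27. Cldn5 (ENSMUSG00000041378), the claudin that seals brain endothelial tight junctions, was counted 3474 times in PSS against 2 in HSS. The ratio between scaled counts was 1673, with an exact 95% interval of 463 to 13820 that covers counting error only. Kdr (ENSMUSG00000062960), the main VEGF receptor of endothelium, had a log2 fold change of -5.92 ± 0.12 (adjusted p = 1.01e-07), and Vwf (ENSMUSG00000001930), which tethers platelets, of -5.68 ± 0.17 (adjusted p = 4.47e-07). Sizes after rose or fell below are on the log2 scale, and each SE is derived from the gene's F test. For Kdr and Vwf, the lowest PSS library lay far above the highest HSS library. Tek, the angiopoietin receptor, was at 185, 176 and 190.1 CPM in PSS and 6.57, 4.90 and 6.74 CPM in HSS and fell by 4.91 (SE 0.14). Its relative Tie1 fell by only 0.97 (SE 0.14), and the junction cadherin Cdh5 by 2.14 (SE 0.11), so the size of the fall differed widely among members. The phosphatase Ptprb, which dampens Tek and Cdh5 complexes, fell by 5.71, the sialomucin Emcn by 4.49, the fenestral diaphragm protein Plvap by 2.73 and the adhesion molecule Icam2 by 3.40. Flt1, a VEGF receptor that also acts as a decoy, was at 265, 271 and 188 CPM in PSS and 343, 338 and 346 CPM in HSS and rose by 0.51 (SE 0.14), and Cd34, a sialomucin of vessel and progenitor cells, was at 361, 349 and 397 CPM in PSS and 479, 481 and 496 CPM in HSS and rose by 0.39 (SE 0.09). Both are the list's exceptions, their groups did not overlap, and their calls were less firm: that of Flt1 was lost without HSS replicate 1, 2 or 3 (adjusted p up to 0.0701) and that of Cd34 without HSS replicate 3 (adjusted p up to 0.0519), which left 0 higher calls in the list without HSS replicate 3 and 1 without HSS replicate 1 or 2. The call of Eng, a TGF-beta co-receptor (-0.51 ± 0.12), ended without HSS replicate 1 or 2 (adjusted p up to 0.061).

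**Figure D3:**
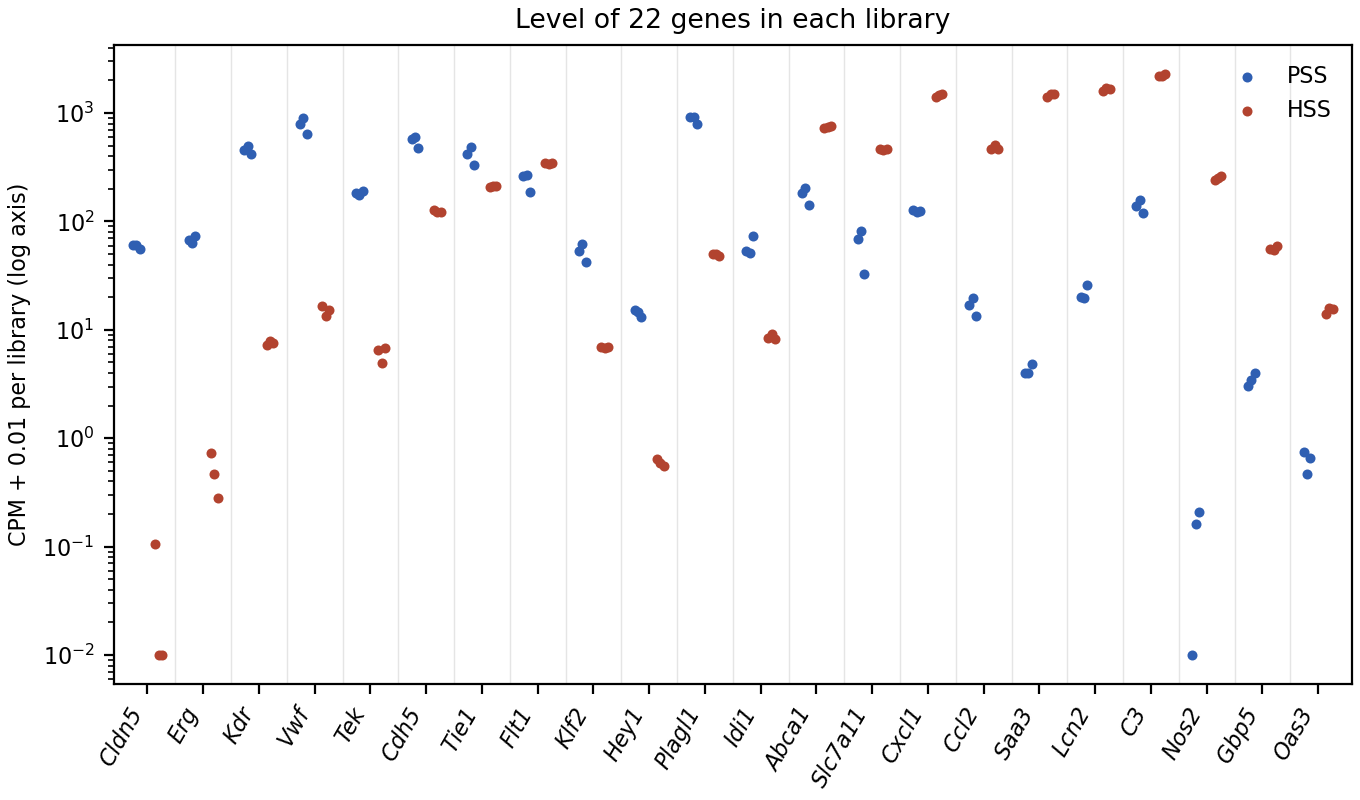
CPM plus 0.01 on a log axis in each of the 3 PSS libraries (blue) and 3 HSS libraries (red) for 22 genes, in the order endothelial, flow, Notch, imprinted, sterol and redox, and inflammatory genes. Points of a group lie close together relative to the distance between groups for most genes, while Tie1 and Flt1 show groups that lie close to each other.

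Transcription factors that set the endothelial lineage were lower as well. Of 21 tested members 18 fell and 1 rose, with a median of -1.19, and 10 of the falls were beyond 2-fold. Erg (ENSMUSG00000040732), an ETS factor needed to keep endothelial genes on, was at 66.7, 63.3 and 73.7 CPM in PSS and 0.725, 0.462 and 0.27 CPM in HSS and fell by 7.09 (SE 0.22, adjusted p = 5.11e-07). The HSS libraries held 5 to 15 counts of it each. Of other ETS factors in the list, Fli1 fell by 2.86, Ets1 by 0.71 and Elk3 by 0.54. The blood and vessel factors Lyl1, Lmo2 and Tal1, which form complexes with one another, fell by 6.39, 4.26 and 4.66. Among arterial and venous factors, Sox17 fell by 3.21, Sox7 by 0.76 and Nr2f2 by 1.17. Epas1, the hypoxia factor HIF-2 alpha, fell by 1.47 and Gata2 by 1.19. The 1 rise, of the homeobox factor Hlx (0.48 ± 0.16), was lost without PSS replicate 1 or HSS replicate 1, 2 or 3 (adjusted p up to 0.123) or with library totals in place of TMM or in limma on log2 FPKM with either pseudocount.

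Of the flow-responsive transcription factors Klf2 passed and Klf4 did not. Klf2 (ENSMUSG00000055148) was at 53.7, 62.6 and 42.7 CPM in PSS and 7.01, 6.75 and 6.95 CPM in HSS, with no overlap, and fell by 2.94 (SE 0.16, adjusted p = 5.23e-06). Klf4 was at 109, 124 and 54.5 CPM in PSS and 73.8, 73.7 and 75.2 CPM in HSS, where PSS replicate 3 lay below and PSS replicates 1 and 2 above all HSS libraries, and did not pass (-0.37 ± 0.26, adjusted p = 0.288), although it was called lower without PSS replicate 3 (adjusted p down to 4.5e-09). The difference between these changes was not tested. Mef2c, a factor that ERK5 activates upstream of Klf2, fell by 1.36 (SE 0.11). Over the list of KLF and ERK5 genes, 5 of 16 fell and 1, Mef2d, rose, a call lost without PSS replicate 1 or HSS replicate 1, 2 or 3 (adjusted p up to 0.0802) or in limma on log2(FPKM + 1). With 1 library left out, the fit moved the higher count from 1 to 0 without PSS replicate 1 or HSS replicate 1, 2 or 3, 3 without PSS replicate 2 or 3 and the lower count from 5 to 9 without PSS replicate 3. Of the 20 tested channels and receptors that sense flow 4 rose and 4 fell, 20.0% each way, which is close to the shares over all tested genes. Dropping 1 library shifted the higher count from 4 to 2 without PSS replicate 1 or HSS replicate 1, 2 or 3, 7 without PSS replicate 2, 9 without PSS replicate 3 and the lower count from 4 to 9 without PSS replicate 3. Piezo2, a stretch-gated channel best known from sensory neurons, was at 73.7, 82.2 and 51.3 CPM in PSS and 5.51, 5.14 and 4.58 CPM in HSS and fell by 3.76 (SE 0.20). Plxnd1, a semaphorin receptor that also senses shear, was at 1499.7, 1682 and 1024 CPM in PSS and 427, 439.8 and 441 CPM in HSS and fell by 1.69 (SE 0.17). Heg1, a membrane mucin linked to junctions, rose by 1.19 (SE 0.13), and P2rx4, an ATP-gated channel of flow sensing, rose by 1.38 (SE 0.08).

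Junction genes fell more often than they rose, and the barrier transporters did the reverse. Of 25 junction and polarity genes 12 fell and 3 rose, with a median of -0.38. Without PSS replicate 3 these counts were 17 and 4. Besides Cldn5 and Cdh5, the adhesion molecules Esam and Jam2 fell by 2.99 and 2.15, and occludin (Ocln) by 0.97. Tjp1, the scaffold ZO-1, was at 311, 329.8 and 267 CPM in PSS and 286, 288 and 284 CPM in HSS and did not pass (-0.08 ± 0.10), except without PSS replicate 3 (adjusted p down to 0.00366). Cingulin (Cgn) and its paralog Cgnl1, which link tight junctions to the cytoskeleton, rose by 1.03 and 0.79. In the list of 20 transporters and receptors of the blood-brain barrier, 9 rose and 1 fell (median 0.20, and 0.31 without HSS replicate 1 or 0.09 without HSS replicate 3). Abcb1a, the P-glycoprotein pump of brain capillaries, was at 1.89, 3.01 and 1.49 CPM in PSS and 8.89, 7.79 and 8.79 CPM in HSS and rose by 1.99 (SE 0.25), and its near-identical paralog Abcb1b rose by 1.92; reads may be shared between them. Slc16a1, a carrier of lactate and ketone bodies, rose by 1.98 (SE 0.08) and Slc2a1, the glucose carrier of the barrier, by 0.75 (SE 0.11). The PSS and HSS libraries of these 4 transporters did not overlap. Falls in the transporter list numbered 6 without PSS replicate 3 and 2 without PSS replicate 2.

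Genes of the VEGF, angiopoietin and apelin systems changed on both the ligand and the receptor side. Besides Kdr and Tek, the receptors Flt4 and Aplnr fell, Flt4 by 1.96 and the apelin receptor Aplnr by 3.78. Several ligands rose: Vegfa (ENSMUSG00000023951) was at 127, 129.5 and 101 CPM in PSS and 372, 355 and 361 CPM in HSS and rose by 1.61 (SE 0.11), Vegfd by 1.90, Pgf by 0.91, Vegfc by 0.79 and apelin (Apln) by 0.77. Angpt2, an antagonist of Tek stored by endothelium, fell by 2.71 (SE 0.19). Pdgfb, with which endothelium recruits pericytes, fell by 2.18 (SE 0.24). Over the list 8 of 20 rose and 9 fell.

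More Notch pathway genes fell than rose, ligands and targets among them. Of 23 tested members 13 fell and 4 rose (median -0.47). The targets Hey1, Hey2 and Heyl fell by 4.60, 4.85 and 5.03, and Hey1 was at 15.2, 14.6 and 13.1 CPM in PSS and 0.628, 0.577 and 0.539 CPM in HSS. Among ligands Dll1 (36.9, 36.2 and 25.9 to 2.27, 2.94 and 2.37 CPM) fell by 3.71, Jag2 by 3.00 and Dll4, from low levels, by 2.58. Receptors moved less than these targets and ligands: Notch1 fell by 0.78 and Notch4 by 0.77, while Notch3 rose by 0.59. The secretase subunit Ncstn and the sheddase Adam17 rose by 0.37 and 0.42, and the call of Ncstn ended without HSS replicate 1 (adjusted p up to 0.0561). These counts depended on single libraries, which moved the higher count from 4 to 8 without PSS replicate 3. Guidance genes, which steer vessels as well as axons, had 15 of 31 lower and 7 higher. Robo4, an endothelial Slit receptor, fell by 5.14 and the venous receptor Ephb4 by 1.36, together with its arterial ligand Efnb2 (1.12). Sema3c, a secreted semaphorin that binds neuropilins, was at 148, 134 and 169 CPM in PSS and 1009, 991 and 1054 CPM in HSS and rose by 2.76 (SE 0.11), with HSS far above PSS.

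Vessel tone and clotting genes held some of the largest changes of all. Nos2 (ENSMUSG00000020826), the inducible nitric oxide synthase of inflamed tissue, had 0, 3 and 4 counts in PSS and 5013, 4373 and 4833 counts in HSS and rose by a log2 fold change of 10.97 ± 0.27 (adjusted p = 1.93e-07). Nos3, the endothelial synthase, moved the other way, from 68.5, 63.5 and 56.4 to 6.19, 7.85 and 5.28 CPM, and fell by 3.29 (SE 0.16). Gch1, which supplies the cofactor of both enzymes, rose by 1.28, and Ass1, which regenerates their substrate arginine, by 0.76, whereas the arginase Arg1 fell by 2.78. Ednrb, the endothelin receptor of endothelium, was at 85.0, 80.1 and 103 CPM in PSS and 1.21, 1.33 and 0.647 CPM in HSS and fell by 6.39 (SE 0.22), and its ligand Edn1 fell by 1.85 (SE 0.13). The adrenomedullin receptor subunits Ramp2 and Calcrl fell by 4.56 and 1.72. Prostaglandin E synthase Ptges rose by 2.53 and the prostacyclin receptor Ptgir by 2.17, from means of 1.81 and 1.16 CPM. Among clotting genes, the thrombin receptor F2r fell by 2.26, the protein C receptor Procr by 1.50 and the nucleotidase Entpd1, which limits platelet activation, by 3.11. Serpinb2, an inhibitor of plasminogen activators, rose by 5.34 (SE 0.16), and the urokinase receptor Plaur by 1.04, while urokinase itself (Plau) fell by 0.77. The coagulation list had 8 of 19 lower and 2 higher, and without PSS replicate 3 the higher count was 5. In the surface coat, the proteoglycan Sdc4, which takes part in flow sensing, was at 48.6, 51.7 and 42.9 CPM in PSS and 241, 256 and 239 CPM in HSS and rose by 2.36 (SE 0.10), and Sdc1 rose by 0.83, while Sdc2 and podocalyxin (Podxl) fell by 0.59 and 0.68.

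Chemokines that recruit neutrophils and monocytes were strongly higher in HSS. Of 15 tested chemokines 12 rose, 11 beyond 2-fold, and 1 fell, with a median log2 fold change of 3.27. Cxcl1 (ENSMUSG00000029380), a neutrophil attractant, was at 129, 121 and 124 CPM in PSS and 1411, 1461 and 1513 CPM in HSS and rose by 3.55 (SE 0.09, adjusted p = 1.93e-07). Its relatives Cxcl2 and Cxcl5 rose by 3.70 and 7.18, and Cxcl5 had 20 counts over the PSS libraries. The monocyte attractants Ccl2 and Ccl7 rose by 4.85 and 4.73, and Cx3cl1, a membrane-bound chemokine of endothelium, by 1.60. Cxcl12, which holds leukocytes and progenitors in place, was the 1 that fell (1.23, SE 0.19). Adhesion molecules for leukocytes were mixed: E-selectin (Sele) fell by 1.25 (39.0, 43.9 and 40.8 to 16.3, 17.0 and 18.7 CPM), Icam1 did not pass (-0.34 ± 0.19) except without PSS replicate 3 and with the GC trend removed, where it was lower, and Vcam1 rose by 0.52, a call lost without PSS replicate 1 or HSS replicate 1, 2 or 3 (adjusted p up to 0.0603).

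Most cytokine and receptor genes were higher too. Among 27 cytokine genes 21 rose and 2 fell (median 1.30). Genes of interleukin 6 family signalling among the rises were the ligands Lif (28.1, 28.7 and 12.3 to 126, 120.1 and 124 CPM) by 2.42, Clcf1 by 1.71 and Il6 by 1.21, the receptors Osmr by 2.21, Il6ra by 1.13 and the shared chain Il6st by 1.30, and the relay genes Jak2 by 0.97, Stat3 by 0.55 and its feedback inhibitor Socs3 by 1.89. The list of JAK, STAT and SOCS genes had 11 of 21 higher and 2 lower. The libraries entered changed the lower count from 2 to 1 without HSS replicate 1. The macrophage growth factor Csf1 rose by 2.26 and its receptor Csf1r, from a mean of 1.96 CPM, by 3.17. The cytokine Il15 and Lifr, the receptor of Lif, fell by 1.33 and 0.33, calls lost without HSS replicate 3 (adjusted p up to 0.055) and without PSS replicate 1 or 2 or HSS replicate 1, 2 or 3 (adjusted p up to 0.135) or in limma on log2 FPKM with either pseudocount or with the GC trend removed, and the count of falls was 1 without PSS replicate 1 or HSS replicate 1 or 2 and 0 without HSS replicate 3. In the NF-kappaB list 22 of 30 rose and 0 fell (median 0.88), and without PSS replicate 3 there were 2 falls. Subunit genes Nfkb1, Nfkb2 and Relb rose by 1.32, 1.14 and 1.16, as did the negative regulators Tnfaip3 (1.22) and Tnip1 (1.55), the atypical kinase Ikbke (2.65) and the receptor Tlr2 (2.21).

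Acute phase proteins, made mainly by liver in inflammation and also by activated endothelium, were among the largest rises. All but 1 of the 20 tested members rose (19), 17 beyond 2-fold, with a median of 3.79. The exception, Serpina3h, did not pass (1.39 ± 0.69). Saa3 (ENSMUSG00000040026), serum amyloid A 3, was at 3.99, 4.02 and 4.88 CPM in PSS and 1400.4, 1507 and 1486 CPM in HSS and rose by a log2 fold change of 8.41 ± 0.14. Lcn2 (ENSMUSG00000026822), which binds bacterial iron carriers, was at 20.1, 19.5 and 26.0 CPM in PSS and 1612, 1719 and 1680.1 CPM in HSS and rose by 6.26 (SE 0.15). In both, every HSS library lay far above every PSS library. Vnn3 and Serpina3n were not counted in PSS (0) and had 360 and 296 counts over the HSS libraries. Against 3 counts over the group they were at least 125-fold and 102-fold higher. Both bounds lie above the list median, so placing the genes there could not move it from 3.79. The metal reductase Steap4 rose by 6.51, the protease inhibitor Slpi by 5.43, ceruloplasmin (Cp) by 3.43 and the lipopolysaccharide binding protein Lbp by 1.73. Saa and Serpina3 genes have close paralogs, among which reads may be split. Of the complement genes, the starter proteases C1ra and C1s1 rose by 3.69 and 4.47 and the central component C3 (ENSMUSG00000024164; 139, 158 and 119.7 CPM in PSS and 2209, 2204 and 2291 CPM in HSS) by 4.01, so that C3 was already expressed in PSS. The regulator Serping1 rose by 2.77, and the anaphylatoxin receptor C3ar1 fell by 3.35. Complement as a list had 7 of 17 higher and 3 lower, and 10 were higher without PSS replicate 3.

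Interferon-stimulated genes rose almost without exception. Of 43 tested members 42 rose, 25 beyond 2-fold, and 1 fell, with a median of 1.57. Oas3 (ENSMUSG00000032661), which makes the signal that activates RNase L, was at 0.736, 0.459 and 0.647 CPM in PSS and 13.9, 15.8 and 15.4 CPM in HSS and rose by 4.60 (SE 0.19). Gbp5 (ENSMUSG00000105504), a guanylate binding protein induced by interferon gamma, was at 3.05, 3.46 and 3.98 CPM in PSS and 55.4, 54.3 and 59.2 CPM in HSS and rose by 4.00 (SE 0.13). Ifit1 (ENSMUSG00000034459), which binds viral RNA, was well expressed in PSS already, at 93.1, 76.2 and 143 CPM in PSS and 348, 351 and 366 CPM in HSS, with PSS replicate 3 highest in its group, and rose by 1.77 (SE 0.21). The nucleic acid sensor Zbp1, from 0.134 to 11.1 CPM, rose by 6.28, and the RNA sensors Rigi and Ifih1 by 1.07 and 0.94. The transcription factors Irf7 and Stat2, which carry the response, rose by 2.59 and 1.81, and its feedback protease Usp18 by 1.57. Irf8, a factor best known from myeloid cells, was the 1 that fell (2.41, SE 0.18). Genes of the Oas, Gbp and Ifit families have close paralogs, so their single values are less certain than the count over the list.

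Promoters of interferon list genes often held the core of the interferon-stimulated response element, GAAA and GAAA separated by any 2 bases. It was searched on both strands in the 250 bases before each gene's start, in the RefSeq promoter table of build GRCm38.p6, which covered 10718 tested genes. The core was present in 16 of 32 interferon list windows (50%), against 2.69% of all windows. Of the windows of genes beyond 2-fold, 10.5% of the 390 higher and 2.62% of the 458 lower genes held it. The windows of the 3 genes described above are printed with matches in capitals, read along the gene's strand, so that matches on the opposite strand appear as TTTC and TTTC. A match is only an occurrence of these letters. They lie at chr19:34640639-34640888 (plus strand), chr5:120777660-120777909 (minus strand) and chr3:142496684-142496933 (plus strand).
Ifit1: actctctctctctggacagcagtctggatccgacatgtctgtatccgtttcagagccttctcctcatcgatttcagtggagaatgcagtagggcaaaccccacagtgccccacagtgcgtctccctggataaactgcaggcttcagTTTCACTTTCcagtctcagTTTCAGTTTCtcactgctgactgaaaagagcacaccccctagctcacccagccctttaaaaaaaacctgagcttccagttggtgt
Oas3: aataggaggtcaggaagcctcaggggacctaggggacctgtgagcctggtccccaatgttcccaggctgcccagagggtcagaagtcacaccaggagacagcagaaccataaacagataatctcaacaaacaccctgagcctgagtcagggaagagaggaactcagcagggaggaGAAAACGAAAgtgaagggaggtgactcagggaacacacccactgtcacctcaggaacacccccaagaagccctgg
Gbp5: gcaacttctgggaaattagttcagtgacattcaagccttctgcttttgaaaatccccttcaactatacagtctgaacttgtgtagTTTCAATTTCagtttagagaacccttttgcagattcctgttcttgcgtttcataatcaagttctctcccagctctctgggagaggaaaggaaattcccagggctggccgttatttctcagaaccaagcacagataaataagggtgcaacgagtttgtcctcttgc

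The windows of Cxcl1 (chr5:90890995-90891244, plus strand) and Cxcl2 (chr5:90903649-90903898, plus strand) are shown because both held the NF-kappaB site searched on both strands (GGGA, any base, TTTCC), in capitals. Both had the same 10 letters within 100 bases of the start. This site was present in 2 of 9 chemokine windows and 0.364% of all windows. It was in 3 of 24 windows of the NF-kappaB list and 0 of 16 of the acute phase list. Of genes beyond 2-fold, 1.03% of the 390 higher and 0 of the 458 lower held it.
Cxcl1: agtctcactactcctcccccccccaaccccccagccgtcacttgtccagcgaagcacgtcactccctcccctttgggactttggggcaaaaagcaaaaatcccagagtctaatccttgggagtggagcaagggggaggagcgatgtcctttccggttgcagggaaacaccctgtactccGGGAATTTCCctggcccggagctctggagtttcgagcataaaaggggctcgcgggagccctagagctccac
Cxcl2: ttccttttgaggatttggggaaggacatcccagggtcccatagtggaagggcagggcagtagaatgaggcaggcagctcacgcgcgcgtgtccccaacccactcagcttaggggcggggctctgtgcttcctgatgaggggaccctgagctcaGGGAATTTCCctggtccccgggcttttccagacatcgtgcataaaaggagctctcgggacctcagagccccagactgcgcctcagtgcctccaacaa

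Most tested genes of class I antigen presentation rose, among them presenting molecules and the peptide pump. Of 20 tested members 15 rose and 0 fell (median 0.90). With any 1 library left out the rises were 11 to 17 and the falls 1 or 2. The summed level of all 25 with counts given was 3679 to 4500 CPM in PSS and 4346 to 4397 CPM in HSS, so the groups overlapped. H2-K1 was at 25.5, 24.0 and 25.2 CPM in PSS and 102, 107 and 107 CPM in HSS and rose by 2.08, and H2-D1 rose by 1.84, although class I genes are similar enough to share reads. The peptide pump subunits Tap1 and Tap2 rose by 1.62 and 1.58, and Nlrc5, the transcriptional activator of class I genes, from 1.40 to 20.1 CPM, by 3.84. The general chaperones of the pathway, Canx (-0.20 ± 0.10) and Calr (-0.16 ± 0.09), did not pass, except Canx without PSS replicate 3 (adjusted p down to 0.0253). The cell death list had 10 of 29 higher and 6 lower. Removing 1 library took the lower count from 6 to 3 without PSS replicate 1 or HSS replicate 1, 2 or 3. Without PSS replicate 3 the list had 15 higher and 9 lower. Among its rises, the death receptor Fas rose by 3.94 (SE 0.11), from means of 10.6 to 163 CPM, and Casp1, Casp4 and Gsdmd, which carry out pyroptosis, rose by 1.31, 1.11 and 1.44.

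Every tested gene of cholesterol synthesis fell. The list had 22 of 22 lower, with a median of -1.48, and 20 to 22 with any 1 library left out. Along the route, Hmgcs1 (ENSMUSG00000093930), which makes HMG-CoA, was at 113, 113 and 131 CPM in PSS and 30.0, 30.1 and 31.4 CPM in HSS and fell by 1.96 (SE 0.09). All HSS libraries lay below all PSS libraries. Among isoprenoid steps Idi1 fell by 2.80 and Fdps by 2.59, among sterol steps Cyp51 by 2.63 and Msmo1 by 2.43. Srebf2, the factor that turns this pathway on, fell by 1.51, and its anchor Insig1, a target of the same factor, by 1.54. Several genes that move cholesterol out of cells or sense its excess went the other way. In the list of 25 sterol handling genes 11 rose and 7 fell. The exporter Abca1 was at 182, 205 and 141 CPM in PSS and 735, 743 and 762 CPM in HSS and rose by 2.08 (SE 0.14), Abcg1 rose by 0.70, the oxysterol receptor Nr1h3 by 1.65 and Ch25h, which makes an oxysterol that restrains SREBP factors, by 2.70.

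The Hmgcs1 window (chr13:119690101-119690350, plus strand) is shown because it held the sterol regulatory core searched on both strands, TCACNCCAC, here in capitals. That core was in 1 of 17 windows of the cholesterol list, 1 of 16 of the acute phase list and 0.952% of all windows. The CCAAT box, read by NF-Y, was in 15 of 17 windows of the cholesterol list (88.2%) and in 36.1% of all windows. It was also in 22 of 30 windows of the mitosis list (73.3%). Of genes beyond 2-fold, 31.3% of the higher and 34.1% of the lower held it.
Hmgcs1: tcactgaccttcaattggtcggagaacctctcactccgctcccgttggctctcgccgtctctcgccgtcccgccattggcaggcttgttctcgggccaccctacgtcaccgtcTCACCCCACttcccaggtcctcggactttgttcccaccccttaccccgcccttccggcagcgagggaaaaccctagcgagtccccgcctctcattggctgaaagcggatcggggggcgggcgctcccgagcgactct

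Of 33 genes of fatty acid synthesis and oxidation 15 rose and 10 fell. Among synthesis and desaturation genes Acly fell by 1.00, Acsl3 by 1.07, Fads1 by 0.83 and Scd2 by 0.62, while Fasn did not pass (-0.32 ± 0.13), except without PSS replicate 3 (adjusted p down to 1.37e-07) or with the GC trend removed or with the gene length trend removed. Among storage and oxidation genes the triglyceride enzyme Dgat2 rose by 1.41, the kinase Pdk4, which limits the entry of glucose carbon into the citric acid cycle, by 1.19 and the carnitine transferase Cpt1a by 0.82. The call of Pdk4 was lost without PSS replicate 1 or HSS replicate 1, 2 or 3 (adjusted p up to 0.0719) or with no filter on low counts.

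Glycolysis and hypoxia-response genes rose together. Of 29 tested members 20 rose and 1 fell, with a median of 0.64. The 1 fall, of the vasodilator peptide gene Adm (-0.70 ± 0.21), was lost without PSS replicate 1 or HSS replicate 1 or 3 (adjusted p up to 0.0991). The lactate exporter Slc16a3 was at 57.4, 63.7 and 54.2 CPM in PSS and 205, 214 and 217 CPM in HSS and rose by 1.86 (SE 0.09). The entry enzymes Hk2 and Pfkp rose by 1.44 and 1.60, the late enzymes Pkm and Ldha by 0.91 and 0.64, and Hif1a itself by 0.77. Gapdh did not pass (0.19 ± 0.14), except without PSS replicate 3 (adjusted p down to 0.02). Among targets of the oxidative stress factor NRF2, the cystine carrier Slc7a11 was at 69.2, 82.2 and 32.7 CPM in PSS and 463, 453 and 462 CPM in HSS and rose by 2.90 (SE 0.30), Nqo1 by 1.55 and Srxn1 by 1.24. Hmox1, a widely used reporter of this response, did not pass (-0.24 ± 0.21), except without PSS replicate 3 (adjusted p down to 5.83e-09). Mitochondrial superoxide dismutase Sod2 rose by 2.18. The list had 14 of 30 higher and 2 lower. Single libraries moved the lower count from 2 to 0 without HSS replicate 3, 1 without HSS replicate 2, 4 without PSS replicate 3. The higher count was 20 without PSS replicate 3. The list of the unfolded protein and ATF4 responses had 10 of 29 higher and 5 lower. With 1 library left out, the fit moved the lower count from 5 to 1 without HSS replicate 1, 2 or 3, 3 without PSS replicate 1, 8 without PSS replicate 3. The disulfide isomerase Pdia4 fell by 0.64, and Ddit3 (0.08 ± 0.13) and Xbp1 (-0.12 ± 0.09) did not pass. Chac1 and Trib3, targets of Atf4, rose by 2.35 and 1.19. The size of the change in Atf4 itself is not reported here. Its call was lost without PSS replicate 1 or HSS replicate 1, 2 or 3 (adjusted p up to 0.117) or with no filter on low counts.

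Several immediate early genes rose and several feedback inhibitors of the ERK pathway fell. Egr1 was at 301, 269 and 468 CPM in PSS and 819, 815 and 824 CPM in HSS and rose by 1.24 (SE 0.20), the AP-1 subunits Fosl1 and Junb by 1.68 and 0.65, and Zfp36, which destabilises cytokine mRNA, by 1.48. The ERK phosphatase Dusp6 fell by 0.88 and the inhibitors Spry4 and Spry2 by 1.09 and 0.74. Over the list 12 of 28 rose and 4 fell, and without PSS replicate 3 these were 17 and 6. Mitosis genes rose by small amounts: 21 of 35 passed and 0 fell, with a median of 0.37. Plk1, a kinase of mitotic entry, was at 73.9, 77.6 and 71.8 CPM in PSS and 146, 145 and 138 CPM in HSS and rose by 0.94 (SE 0.08), and the factor Foxm1 rose by 0.87. Dropping 1 library shifted the higher count from 21 to 32 without PSS replicate 3. Without any 1 of the other 5 libraries it was 14 to 16. DNA replication genes had 4 of 37 higher and 8 lower. These counts depended on single libraries, which moved the higher count from 4 to 2 without PSS replicate 1 or HSS replicate 1, 2 or 3, 8 without PSS replicate 3 and the lower count from 8 to 1 without HSS replicate 3, 2 without HSS replicate 2, 3 without HSS replicate 1, 4 without PSS replicate 1. The cyclins Ccnd1 and Ccnd2 rose by 0.78 and 0.55, and the cell cycle inhibitor Cdkn1a by 0.90.

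Basement membrane and adhesion receptors changed in composition. Among integrins, the collagen-binding chains Itga1 and Itga2 fell by 2.70 and 3.32, Itga4, which binds VCAM1, by 3.23 and the common chain Itgb1 by 0.80. The laminin-binding chain Itga7 was at 26.1, 30.1 and 21.4 CPM in PSS and 316, 318 and 327 CPM in HSS and rose by 3.63 (SE 0.14), and Itga6 rose by 0.53. Laminin chains that rose included Lamb3, by 4.04, Lama4, by 1.11 and Lama5, by 0.72. Integrins, laminins and nidogens as a list had 13 of 26 higher and 9 lower. Collagens were mixed, 8 of 25 higher and 7 lower, with Col13a1 at 30.5, 33.8 and 22.0 CPM in PSS and 0.0967, 0.635 and 0.324 CPM in HSS and a fall of 6.38, while Col8a1 rose by 1.28. Other vessel wall matrix genes had 9 of 17 lower and 4 higher. The summed level of all 21 with counts given was 3264 to 3435 CPM in PSS and 3899 to 4005 CPM in HSS. Ecm1, a matrix glycoprotein, rose by 1.31. Fbln5, needed for elastic fibre assembly, was at 33.1, 39.7 and 41.8 CPM in PSS and 1.30, 0.462 and 0.485 CPM in HSS and fell by 5.62 (SE 0.30), and Mgp, which keeps arteries from calcifying, was counted 409 times in PSS against 1 in HSS, with a ratio of 393.9 and an exact 95% interval of 70.3 to 15600. Several secreted proteases rose: Mmp13 (7.51, 8.92 and 7.62 to 145, 145 and 142 CPM) by 4.16, Mmp3 by 1.64, Mmp9 by 3.35 and the aggrecanase Adamts5 by 1.79. The membrane proteases Mmp15 and Mmp14 fell by 6.61 and 0.68. In all 15 of 27 proteases and inhibitors rose and 7 fell.

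Genes of TGF-beta and BMP signalling fell more often than they rose, 15 against 4 of 28. The endothelial receptor Acvrl1 fell by 1.48 (186, 203 and 150.0 to 61.0, 61.2 and 70.6 CPM), the ligands Bmp6 and Tgfb2 by 1.93 and 1.65, and the pseudoreceptor Bambi by 2.64, while the latency protein Ltbp1 rose by 1.24. Wnt genes had 11 of 25 lower and 4 higher. Fzd4, the receptor that maintains the blood-retina and blood-brain barriers, was at 140.1, 149 and 119 CPM in PSS and 30.5, 35.2 and 34.6 CPM in HSS and fell by 2.03, and the ligand Wnt6 rose by 3.08. Mesenchymal genes did not move one way, with 7 of 22 higher and 8 lower. The libraries entered changed the lower count from 8 to 4 without PSS replicate 1 or HSS replicate 1 or 2, 5 without HSS replicate 3. Snai1 rose by 0.83 and Snai2 fell by 2.04, the intermediate filament Vim fell by 0.74, and N-cadherin (Cdh2, -0.08 ± 0.08) and Acta2 (-0.55 ± 0.40) did not pass.

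Imprinted genes, which are expressed from 1 parental copy, held several large falls. Of 19 tested members 11 fell and 1 rose, with a median of -0.65. Plagl1, a zinc finger factor thought to regulate other imprinted genes, was at 919.7, 925 and 798 CPM in PSS and 50.2, 49.9 and 48.3 CPM in HSS and fell by 4.15 (SE 0.10). Mest was at 711, 705 and 749 CPM in PSS and 51.8, 51.8 and 57.1 CPM in HSS and fell by 3.75 (SE 0.10), and the growth factor Igf2 by 5.33 (SE 0.26). Peg10, a gene of retrotransposon origin, rose by 1.29 (SE 0.16), from 1813, 1941 and 1260.4 to 4036, 4076 and 4148 CPM. Igf2r, the receptor that clears Igf2, did not pass (-0.08 ± 0.10), except without PSS replicate 3 (adjusted p down to 0.0122). In the Hox clusters, which store positional identity, 11 of 33 fell and 1, Hoxa11, rose, with a median of -0.19. Hoxd4, from means of 1.59 to 0.299 CPM, fell by 2.38, and Hoxa9 (-0.15 ± 0.09) and Hoxa13 (-0.19 ± 0.12) did not pass. Removing 1 library took the lower count from 11 to 7 without HSS replicate 2.

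**Figure D4:**
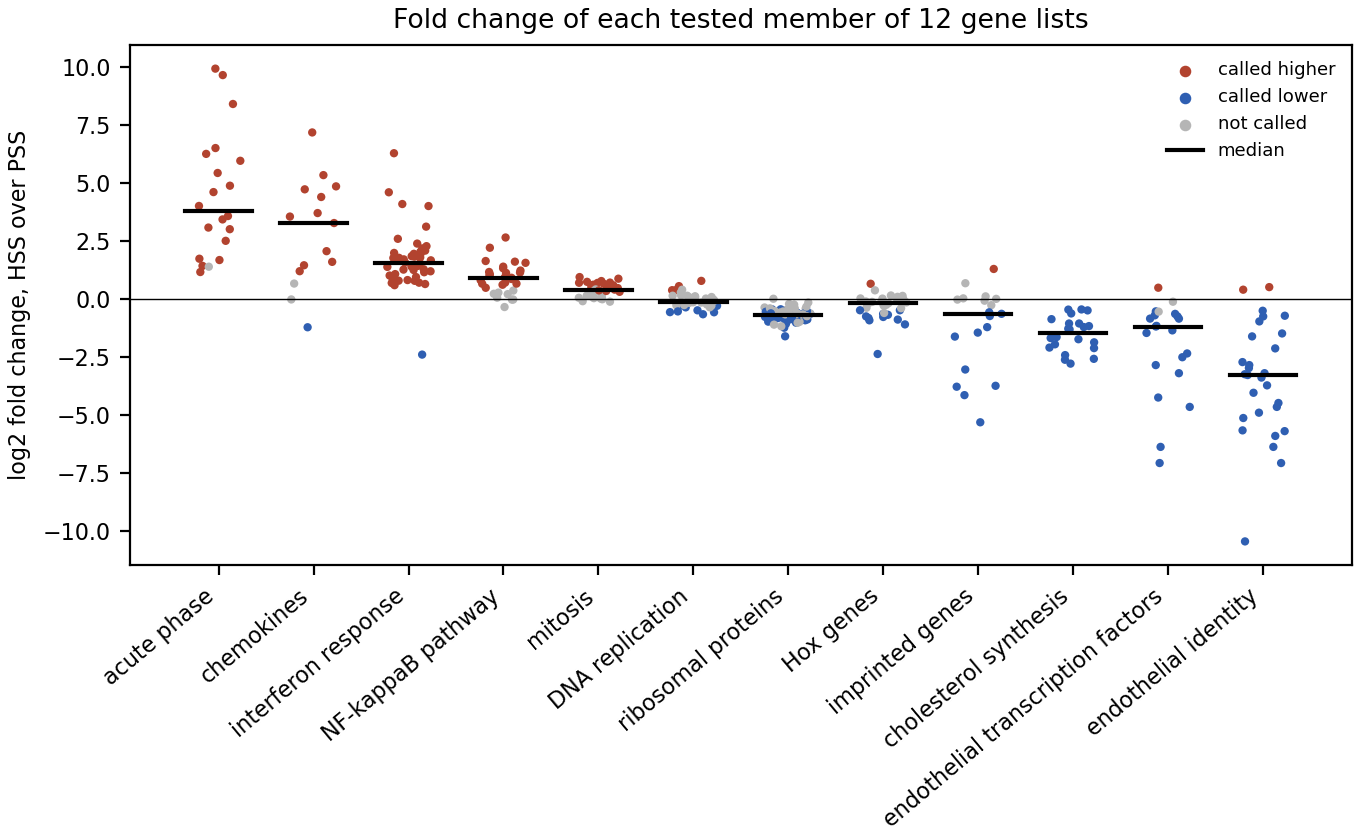
Log2 fold change of HSS over PSS for each tested member of 12 gene lists, 1 point per gene, with the list median marked. Endothelial identity, cholesterol synthesis and imprinted genes lie mostly below 0, chemokine, acute phase and interferon genes lie mostly above 0, and Hox genes lie near 0.

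Ribosomal protein genes were lower in HSS, and this result depended on which libraries were entered. Of 77 tested members 50 fell and 0 rose, with a median of -0.69. The list's median log2 level relative to the PSS mean was -0.12, -0.38 and 0.52 in PSS replicates 1, 2 and 3 and -0.68, -0.51 and -0.70 in HSS, so PSS replicate 3 lay highest and PSS replicate 2 closest to HSS. Leaving out 1 library moved the lower count from 50 to 1 without HSS replicate 3, 2 without HSS replicate 1, 5 without HSS replicate 2. Without PSS replicate 3 the median was -0.38, with 41 lower, and without PSS replicate 2 it was -0.88, with 70 lower. Respiratory chain subunits encoded in the nucleus had 6 of 34 lower and 1 higher, and their medians by library followed the same order within PSS (-0.09, -0.23 and 0.34). Single libraries moved the higher count from 1 to 0 without HSS replicate 3, 7 without PSS replicate 3 and the lower count from 6 to 1 without HSS replicate 1, 2 or 3, 10 without PSS replicate 3, 17 without PSS replicate 2. Genes in the eighth with the shortest transcripts had median deviations of -0.05, -0.15 and 0.24 in PSS replicates 1, 2 and 3 and -0.15 to -0.25 in HSS. With the trend on gene length removed from each library, 53 of the 77 ribosomal protein genes fell, with a median of -0.61. In the fit to all 9 libraries 1 of them did. Of 15 widely used reference genes 2 rose and 1 fell. With 1 library left out, the fit moved the higher count from 2 to 0 without PSS replicate 1 or HSS replicate 1, 2 or 3, 1 without PSS replicate 2 and the lower count from 1 to 0 without HSS replicate 1, 2 or 3, 3 without PSS replicate 2 or 3. Actb did not pass (-0.15 ± 0.09), except without PSS replicate 3 (adjusted p down to 0.00212).

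**Figure D5:**
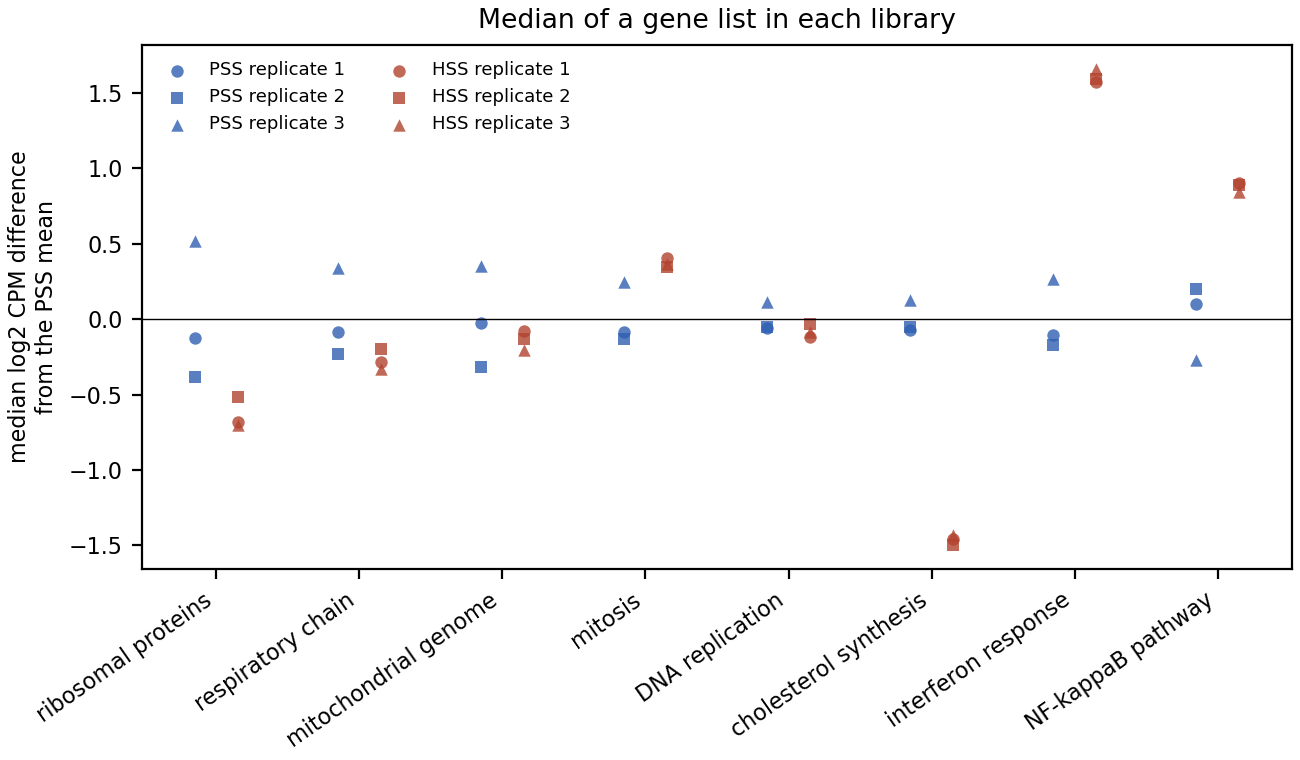
Median log2 CPM difference of the tested members of 8 gene lists (horizontal axis) in each library relative to the mean of the PSS libraries, with PSS in blue and HSS in red. For ribosomal protein genes the PSS libraries are spread from -0.38 to 0.52, while for cholesterol synthesis and interferon genes the HSS libraries lie close together and far from all PSS libraries.

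The remaining largest changes joined genes of unlike function. Fev, an ETS factor of serotonin neurons, was counted 363 times in PSS against 2 in HSS, a ratio of 174.8 (exact 95% interval 48 to 1449). The muscarinic receptor Chrm3 had 317 and 3 counts, a ratio of 101.8 (34.5 to 496.1). Gkn3 fell by 6.55. Among rises, the adaptor Fyb1 rose by 7.40 and the NADPH oxidase activator Noxa1 by 6.59. On the FPKM scale, which divides by length, the largest rises in mean level were of Cxcl1, Lcn2, Saa3, Ccl2 and C3, and the largest falls of mt-Nd2, mt-Nd5, Rps15, Tmsb10 and Ptma. The falls of mt-Nd2, mt-Nd5, Rps15 and Ptma lost their calls when single libraries were left out: that of mt-Nd2 without PSS replicate 1 or HSS replicate 1, 2 or 3 (adjusted p up to 0.102), of mt-Nd5 without PSS replicate 1 or HSS replicate 1, 2 or 3 (adjusted p up to 0.172) or with a filter of 1 CPM in 3 libraries or in limma on log2 FPKM with either pseudocount or with the GC trend removed, of Rps15 without HSS replicate 3 (adjusted p up to 0.059) and of Ptma without HSS replicate 3 (adjusted p up to 0.0527). By chromosome, X had the lowest median of tested genes, -0.20, with 13.1% of 489 genes higher and 30.1% lower. Chromosome 13 had 12.3% of 536 genes higher, 21.3% lower and a median of -0.15. Chromosome 18 had 18.1% of 370 genes higher, 26.5% lower and a median of -0.12. The 12 mitochondrial genes had a median of -0.19, and 42.9% of the 7 Y genes were lower.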

How the data were processed

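RNA was extracted with TRIzol and made into libraries with an NEBNext Ultra kit, per the labels' protocols. HISAT2, HTSeq 0.13.5 and build GRCm39 are named in the submitters' processing notes, and none of the sources used here names a strand setting. A single table deposited by the authors holds raw read counts per gene and FPKM values. Counts were analysed with edgeR 4.0.16 in R 4.3.3: genes passing filterByExpr (minimum count 10), TMM normalization, a quasi-likelihood fit to the 6 PSS and HSS libraries with the group as the only term, and Benjamini-Hochberg adjustment at 0.05 over all tested genes. glmTreat tested changes beyond 2-fold. CPM values use TMM-scaled library sizes. The SE of a log2 fold change is its absolute value divided by the square root of the gene's F statistic. It was not estimated separately, and can understate the error of genes with few counts in 1 group. The FPKM values deposited by the authors were used only to rank changes in level and, as log2 values with pseudocounts of 1 and 0.1, in alternatives run with limma 3.58.1. DESeq2 1.42.0 was another alternative. Scripts were tested on simulated data.

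The text names, by rule, the 10 largest rises and falls among called genes with at least 5 CPM in the higher group and no overlap between groups, the 5 largest changes in mean FPKM each way, and, per list, key genes and the 3 members with the smallest p. Some genes the rule selects are not reported here. Other list members given as examples were chosen after their values were seen. The gene lists and the comparison were chosen with earlier results of these data known. Overlapping genes and close paralogs may share reads. Intervals cover counting error only.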

Additional observations from a re-analysis of the deposited data

How the results depend on the processing

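The count of 6233 called genes depended most on the libraries in the fit. Adding the 3 vortex flow libraries, which raised the estimated coefficient of variation between replicates from 0.135 to 0.35, left 1242 calls, 659 higher and 583 lower, and 193 beyond 2-fold, of which 76 were genes higher in HSS by more than 2-fold and 117 were genes lower in HSS by more than 2-fold. Of the 261 called genes named in the text 140 kept their call there, and 245 kept it with any 1 library left out. In that fit 14 of 28 endothelial identity and 17 of 22 cholesterol synthesis genes were lower, and 18 of 43 interferon, 11 of 20 acute phase, 10 of 16 chemokine and 1 of 35 mitosis genes were higher. With 1 library left out the calls ranged from 4180 to 8955, the higher calls from 2212 to 4562, the lower calls from 1922 to 4393 and those beyond 2-fold from 976 to 1487. No pairing by replicate number was seen. Deviations of same-numbered libraries correlated at -0.02, -0.14 and 0.0069, and those of other pairs at -0.08 to 0.12. The HSS libraries differed little from one another, so a pairing could be missed. A fit with the replicate number as a block called 5563 genes, 2825 higher and 2738 lower, with 1130 beyond 2-fold, and among the named genes Atf4, Hlx, Lifr and mt-Nd5 were not called in it. Removing a trend with GC content or gene length, chosen after seeing the data, gave 6354 and 6553 calls. No called gene named in the text changed sign in these settings. Genes with few counts are limited by depth.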

Other observations

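Further gene groups are described beside the shares over all tested genes, 20.4% higher and 20.4% lower. Lysosome and autophagy genes had 12 of 31 higher (38.7%) and 6 lower (19.4%). The glycoprotein Gpnmb was at 9.88, 11.7 and 8.57 CPM in PSS and 98.3, 103 and 101 CPM in HSS and rose by 3.32 (SE 0.13), the acid lipase Lipa rose by 1.36 and the regulator Tfeb by 0.83, while the aminopeptidase Ctsh fell by 2.84. Dropping 1 library shifted the higher count from 12 to 7 without HSS replicate 1 or 3. Among growth factors, the stem cell factor receptor Kit was at 24.9, 25.1 and 33.8 CPM in PSS and 1.30, 1.62 and 1.40 CPM in HSS and fell by 4.28 (SE 0.19), Igf1 fell by 2.19, and the EGF family ligand Ereg was at 158, 167 and 98.6 CPM in PSS and 525, 507 and 518 CPM in HSS and rose by 1.87 (SE 0.19). In that list 11 of 33 rose and 9 fell.

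Of 33 cytoskeletal genes 7 rose and 11 fell, and 11 rose in the fit without PSS replicate 3. The LIM protein Pdlim1 was at 151, 149 and 180.4 CPM in PSS and 31.0, 32.6 and 34.6 CPM in HSS and fell by 2.29 (SE 0.11), Lmna rose by 0.92 and Lmnb1 fell by 0.73, both of them nuclear lamina proteins. Genes of the YAP and TAZ pathway had 5 of 22 higher (22.7%) and 4 lower (18.2%), close to the shares over all tested genes. The partner Tead1 was higher by 0.89 and Tead4 lower by 1.46. Single libraries moved this pathway's higher count from 5 to 9 without PSS replicate 3. They moved its lower count from 4 to 2 without HSS replicate 2 or 3, 13 without PSS replicate 3. Scavenger receptors of sinusoidal and lymphatic endothelium, Stab1 and Stab2, fell by 4.10 and 2.93, and Stab1 was at 44.4, 48.6 and 32.3 CPM in PSS and 2.66, 2.48 and 2.16 CPM in HSS.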
